A study of Mus musculus with 12 samples.

Results

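Malat1, Neat1, Rmrp, Rpph1, Terc, Miat, Gas5 and Snhg1 are nuclear and structural noncoding RNAs, and their levels are described here in 12 rhabdoid tumors of a Smarcb1-deficient mouse model. They were taken by name from a list of 9 genes and not by their values. Of the 9, 8 are among the 24060 gene rows of the deposited files, and Rn7sk was not analysed here. The tumors arose in P0-CreC;Smarcb1 flox/flox mice on the FVB/N background, in which the P0 promoter drives Cre in neural crest cells and their Schwann cell descendants and both copies of Smarcb1 are floxed. All 12 tumors share this genotype, no control tissue was analysed here and no age is labelled. By labelled location, 4 were retro-orbital, 3 came from the cheek, 3 from the meninges and 1 each from the vestibular N and trigeminal N. The tumors were dissected and frozen, and total RNA was depleted of ribosomal RNA before strand-specific libraries were made. In such libraries, RNAs without a poly(A) tail are kept. Values are RPKM, fragments scaled to gene length (per kilobase) and to the library's fragment total. A dissected tumor also holds cells that keep Smarcb1, such as vessel and inflammatory cells. In bulk RNA, fewer cells of a type and less RNA per cell cannot be told apart.

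Each library held between 13206168 and 57128422 fragments (median 27929720). Whether the 12 tumors came from 12 animals is not stated, and 3 pairs of sample titles share their first part. These pairs were cheek 1 with meninges 1, cheek 2 with cheek 3, and retro-orbital 3 with trigeminal N 1. The p-values below measure the spread between tumors and treat the 12 as independent. Smarcb1, whose floxed alleles define the model, was listed at 1.70 to 6.31 RPKM. Vim, which encodes vimentin, a filament protein of rhabdoid tumor cells, ranged from 114 to 3001 RPKM, lowest in the vestibular N tumor. Acta2 and Fabp7, whose proteins the study also stained in such tumors, were far lower, with medians of 10.5 and 2.15 RPKM. The study reported strong FABP7 staining, but that is protein, and whether these same tumors were stained is not stated. Acta2 ranged from 4.21 to 56.2 RPKM and Fabp7 from 0.0637 to 44.8, lowest in retro-orbital 4. Markers of other tissues differed widely between tumors. The 4 epithelium genes summed to 4.54 to 592 RPKM, the 6 skeletal muscle genes to 5.34 to 499 and the 4 endothelium genes to 14.2 to 56.3. The 5 retina genes summed to at most 1.78 RPKM, and of the 4 erythroid genes the 3 globins were listed at 0 in every tumor while Alas2 had 2.34 to 11.5. The part of these tissues in the levels below was not tested.

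Noncoding RNAs of this kind work as RNA, not as templates for protein. Malat1 gathers in nuclear speckles, where splicing factors are stored, and Neat1 is the scaffold around which paraspeckles form. Rpph1 is the RNA of RNase P, which trims the 5′ ends of tRNA precursors, and Rmrp is the RNA of the related RNase MRP, which cuts ribosomal RNA precursors. Both are made by RNA polymerase III. Terc carries the template that telomerase copies into telomeric repeats. Miat is a long nuclear RNA best known from neurons, retina and heart. Gas5 and Snhg1 are hosts of small nucleolar RNAs (snoRNAs), which lie in their introns and guide chemical changes of ribosomal RNA. Their spliced transcripts are read by ribosomes and removed by nonsense-mediated decay.

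The sequences of the 2 catalytic RNAs are shown because they supplied most of the RPKM discussed below, and because their size matters for that unit. They were read from the GENCODE M21 transcripts on GRCm38 (mm10). Rmrp spans chr4:43492788-43493058 on the minus strand (271 bases) and Rpph1 chr14:50807449-50807767 on the minus strand (319 bases, of which the first 300 are printed). Capitals mark the 2 longest runs that both RNAs hold, each 9 bases long. In a global alignment 161 of 261 aligned bases were the same.
Rmrp: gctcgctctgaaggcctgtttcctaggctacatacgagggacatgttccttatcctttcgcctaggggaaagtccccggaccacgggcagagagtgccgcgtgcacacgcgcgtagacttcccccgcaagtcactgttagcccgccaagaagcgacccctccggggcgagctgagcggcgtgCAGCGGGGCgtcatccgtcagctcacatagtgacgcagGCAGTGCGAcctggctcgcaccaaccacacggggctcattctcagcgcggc
Rpph1: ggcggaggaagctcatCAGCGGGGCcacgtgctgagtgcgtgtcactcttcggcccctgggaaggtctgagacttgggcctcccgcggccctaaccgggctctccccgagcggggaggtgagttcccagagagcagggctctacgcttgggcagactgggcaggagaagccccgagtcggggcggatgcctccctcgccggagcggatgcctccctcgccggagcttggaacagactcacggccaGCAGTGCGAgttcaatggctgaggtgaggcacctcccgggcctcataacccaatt

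For Terc, the first 60 of 423 bases are shown because they hold the template (chr3:96414437-96414859 for the whole transcript, minus strand, GENCODE M21 on GRCm38). Capitals mark CTAACCC, 7 bases that are complementary to the telomeric repeat. This word begins at base 29 of this transcript and occurs 1 time in it. The Terc levels below rest on a shorter RefSeq gene of 397 bases (chr3:96414437-96414833). Its 5′ end lies within the printed bases, shortly before the word, so base 29 holds for the GENCODE transcript only.
Terc: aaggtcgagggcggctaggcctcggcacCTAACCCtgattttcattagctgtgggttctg

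The starts of the 2 snoRNA hosts are shown because these genes had the closest RPKM of any pair of the 8, which depends on the gene lengths used. Each run holds 50 bases before and 50 after an annotated start (RefSeq, GRCm38.p6, plus strand), and capitals mark the unbroken pyrimidines from the first transcribed base on. The run is chr1:161035116-161035215 for Gas5, the second of its 2 starts in the table, and chr19:8723437-8723536 for Snhg1. The Gas5 start opened with C and 4 further pyrimidines, and the Snhg1 start with 3 pyrimidines in all. A C followed by at least 4 pyrimidines (C or T, 5 in all, read on the transcribed strand only) stood at 823 of 32851 starts in the table (2.51%). The first Gas5 start did not have it, whereas the start of Miat, which is no snoRNA host, opened with a longer run of 6. A match is a description of letters and says nothing of how the gene is controlled.
Gas5 start: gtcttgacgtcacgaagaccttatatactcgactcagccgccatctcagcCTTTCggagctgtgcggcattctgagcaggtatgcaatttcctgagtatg
Snhg1 start: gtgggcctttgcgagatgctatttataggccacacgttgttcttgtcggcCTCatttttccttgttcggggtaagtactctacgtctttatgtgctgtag

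The 8 RNAs together made up 7.21% to 13.2% of a tumor's summed RPKM (median 9.43%). The share was highest in cheek 3 and lowest in trigeminal N 1, where meninges 3 was next at 7.30%. Rpph1 and Rmrp alone held 6.13% to 12.1%. RPKM divides by gene length, and these RNAs are short, so the share of sequenced fragments was very different. Of all fragments, the 8 RNAs took 3.26% to 6.05% (median 3.90%), Rpph1 and Rmrp took 0.754% to 1.57%, and Malat1 alone took 2.05% to 4.92%. By fragments, retro-orbital 2 had the highest share and vestibular N 1 the lowest. In the median tumor, Malat1 supplied 71.7% of the 8 RNAs' fragments but 10.5% of their RPKM, and Rpph1 supplied 15.7% and 52.5%.

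**Figure D1:**
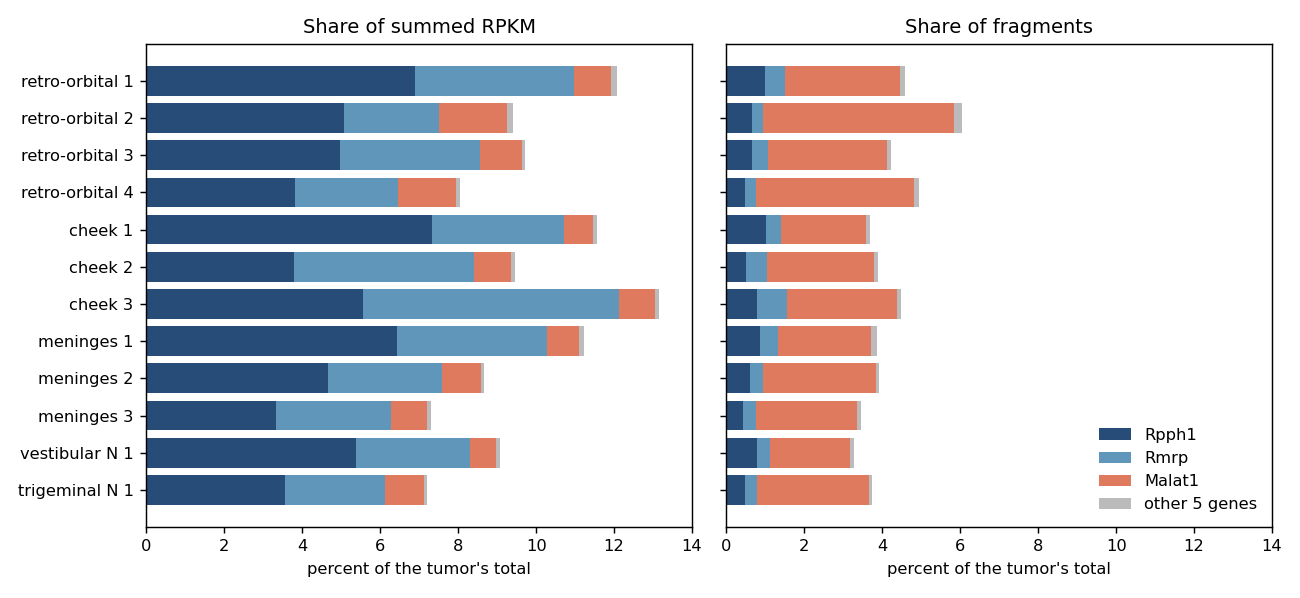
Share of each tumor's summed RPKM (left) and of its fragments (right) held by Rpph1, Rmrp, Malat1 and the other 5 RNAs together, as stacked bars in percent, 1 bar per tumor. Rpph1 and Rmrp make up most of each bar on the left, where bars run from 7.21% to 13.2%, and Malat1 makes up most of each bar on the right, where they run from 3.26% to 6.05%.

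The tumors with the lowest share of RPKM were also those with most ribosomal RNA left. Rn45s and Mir6236, rows whose sequence lies in the ribosomal RNA precursor, together held 10.9% of summed RPKM in meninges 3 and 9.28% in trigeminal N 1, against 0.832% to 3.23% in the other 10 tumors. Without these rows in the sum, the share of the 8 RNAs was 8.19% in meninges 3 and 7.95% in trigeminal N 1, and its median over tumors was 9.63%. Trigeminal N 1 stayed lowest and cheek 3 highest (13.4%).

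Not all 8 RNAs were abundant. Rpph1 ranked 1 to 3 among all gene rows, Rmrp 1 to 4 and Malat1 3 to 7. Neat1 ranked 74 to 598, Gas5 284 to 1005 and Snhg1 355 to 1211. Terc (rank 2872 to 11049) and Miat (5707 to 17181) were low, and Miat reached 1 RPKM in 8 tumors only. The order by median RPKM was Rpph1, Rmrp, Malat1, Neat1, Gas5, Snhg1, Terc and Miat. Rmrp exceeded Malat1, Malat1 exceeded Neat1 and Snhg1 exceeded Terc in 12 of 12 tumors. The other neighbours in this order changed places in at least 1 tumor. Rpph1 exceeded Rmrp in 10 of 12, Neat1 exceeded Gas5 in 11, Gas5 exceeded Snhg1 in 11 and Terc exceeded Miat in 10.

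**Figure D2:**
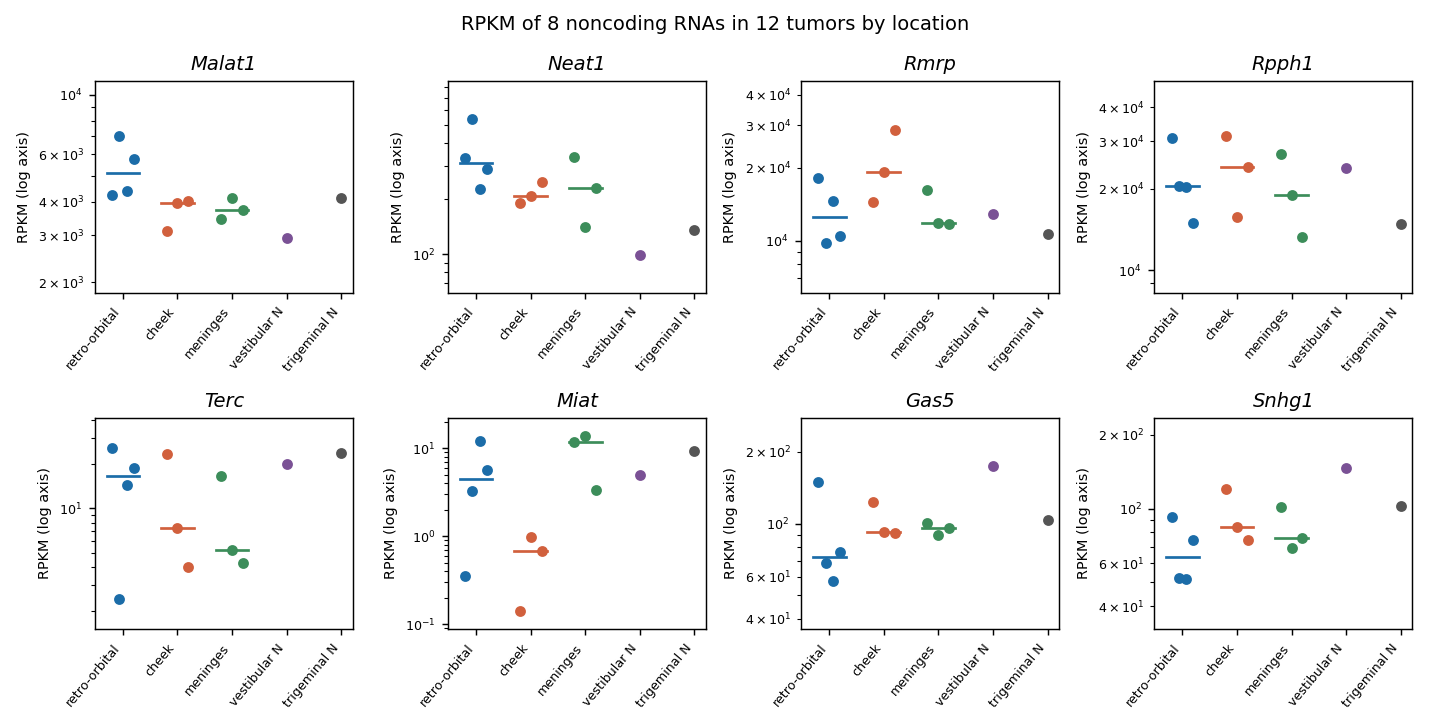
RPKM of each of the 8 RNAs (log axis, a separate range per panel) in 12 tumors grouped by location. Each point is 1 tumor and each line the median of a location with more than 1 tumor. All 4 retro-orbital points of Malat1 lie above the cheek and meninges points, and all 3 cheek points of Miat lie below 1 RPKM.

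Malat1 (chr19:5795690-5802672, minus strand, RefSeq on GRCm38.p6, a single-exon RNA of nearly 7 kb) had the smallest SD of the 8 on the log2 scale. Its RPKM was 4220.1, 7042, 4396.5 and 5791 in retro-orbital tumors 1 to 4. It was 3099, 3937 and 4037 in cheek tumors 1 to 3, and 3430.2, 4135 and 3709 in meninges tumors 1 to 3. The vestibular N tumor had 2931 and the trigeminal N tumor 4124. Every retro-orbital tumor lay above every cheek and meninges tumor, the closest being retro-orbital 1 and meninges 2. The mean was 5362 ± 1322 RPKM in retro-orbital tumors (SD, n = 4), 3691 ± 515 in cheek (n = 3) and 3758 ± 355 in meninges tumors (n = 3). Over 12 tumors the highest value was 2.40-fold the lowest. The SD on the log2(RPKM + 1) scale was 0.35, larger than that of 29.8% of the 15043 genes at 1 RPKM or more in at least 3 tumors.

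The 3 genes with a pattern most like that of Malat1 over the 12 tumors, among 10644 genes at 1 RPKM or more in all of them, were Cd300ld (Pearson's r = 0.961), Plek (0.944) and Lilrb4 (0.944), genes of myeloid cells. Here and below, such genes are the highest of 10644 correlations over 12 tumors. Selection alone raises their r, and none of these likenesses was tested. Lilrb4 stood at 150.3 RPKM in retro-orbital 2, where Malat1 was highest, and at 14.2 in the vestibular N tumor, where Malat1 was lowest. The 6 leukocyte markers, all detected, summed to 156 to 441 RPKM in retro-orbital, 120.5 to 153 in cheek and 164 to 280.3 in meninges tumors. They summed to 92.3 in the vestibular N and 192.5 in the trigeminal N tumor. Retro-orbital 2 (440.7) and 4 (375) had both the highest marker sums and the highest Malat1, whereas retro-orbital 3 (155.8) was within the range of the other locations. The part of leukocytes in the Malat1 level was not tested.

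The 11 proteins listed for nuclear speckles summed to 565 to 983 RPKM. Srsf5, a splicing factor, was the highest by median (255 RPKM), and Rnps1, a factor left on spliced mRNA, the lowest (17.7). Son, a speckle core protein, varied least (SD 0.19 on the log2 scale) and Srsf1 most (0.52). The sum was lowest in a retro-orbital and highest in the vestibular N tumor, the location where Malat1 was lowest. Listed paraspeckle, telomerase, polymerase III and cell cycle genes also summed highest in the vestibular N tumor.

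Neat1 (chr19:5824708-5845480, minus strand) lies 22035 bases from Malat1 on the same strand. The deposited values divided its fragments by 3177 bases, near the short isoform and far from the 20773 bases of the gene's span. RPKM was 333, 539, 225 and 291 in the retro-orbital, 190.2, 206 and 246 in the cheek and 336, 141 and 228 in the meninges tumors. In the vestibular N tumor it was 99.7 and in the trigeminal N tumor 136. Values were highest in retro-orbital 2 and lowest in the vestibular N tumor, as for Malat1, but the 3 larger locations overlapped. The range over tumors was 5.41-fold, against 2.40-fold for Malat1, and the ratio of Malat1 to Neat1 ran from 10.2 in meninges 1 to 30.3 in trigeminal N 1.

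The genes most like Neat1 were Kmt2e (r = 0.858), which encodes a chromatin protein, Adamtsl4 (0.856) and Snord15b (0.844), a snoRNA. All 11 paraspeckle proteins of the list were detected, from Hnrnpk (median 255 RPKM) to Hnrnph3 (5.77). Hnrnph3 varied most between tumors (SD 0.50 on the log2 scale) and Cpsf6 least (0.15). Nono and Sfpq, the pair that binds Neat1 in paraspeckles, had medians of 159 and 85.6 RPKM. Both were highest in the vestibular N tumor, where Neat1 was lowest. That single tumor was also highest for most other paraspeckle proteins and for genes of other lists, such as Srsf1 and Pcna. The peak is therefore not particular to this pair.

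Rpph1 (chr14:50807447-50807771, minus strand) was the highest or second highest gene in 11 of the 12 tumors and ranked 3 in meninges 3. RPKM was 30666, 20501, 20299 and 14972 in the retro-orbital tumors. It was 31237, 15772 and 24066 in the cheek and 26844, 18988 and 13240.4 in the meninges tumors. The vestibular N tumor had 23831 and the trigeminal N tumor 14834. Each of the 3 larger locations held both high and low tumors, and the ranges overlapped throughout.

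Rmrp (chr4:43492785-43493059, minus strand) had 18158, 9784, 14642 and 10419 RPKM in the retro-orbital tumors. It had 14460.2, 19214 and 28531 in the cheek and 16164, 11852 and 11778 in the meninges tumors. In the vestibular N tumor it was 12902 and in the trigeminal N tumor 10662. Cheek 3 was the highest and cheek 2 the next, but cheek 1 lay inside the retro-orbital range. The mean was 20735 ± 7158 RPKM in cheek (SD, n = 3), 13251 ± 3918 in retro-orbital (n = 4) and 13265 ± 2511 in meninges tumors (n = 3).

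The ratio of Rpph1 to Rmrp set the same 2 tumors apart. Rpph1 was 0.821 times Rmrp in cheek 2 and 0.844 times in cheek 3, and 1.12 to 2.16 times in the other 10 tumors, with the highest ratio in cheek 1. Cheek 2 and cheek 3 share the first part of their titles. Counted as fragments the ratio was 0.970 and 0.997 in these tumors and 1.33 to 2.55 in the others. At 57654 to 376884 fragments per tumor, counting error was at most 0.416% of a value for Rmrp and 0.361% for Rpph1.

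The gene most like Rpph1 was Rprl2 (r = 0.897), an RNase P RNA-like gene with 32.2 to 110.3 RPKM, followed by Snora41 (0.864), a snoRNA, and Sssca1 (0.860). Rprl2 and Rprl3 matched Rpph1 at 87.8% and 88.2% of 279 aligned bases, and the study counted only reads with a single place in the genome. How many reads this removed from each gene was not tested, so their levels are uncertain. Rmrp was most like Qser1 (r = 0.903), Csnk1g3 (0.891) and Pidd1 (0.888). On the genome, Rpph1 overlaps Ccnb1ip1 on the same strand (at most 13.6 RPKM) and Rmrp overlaps Ccdc107 on the other strand (16.6 to 44.6 RPKM).

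The 11 proteins shared by RNase P and RNase MRP, or belonging to 1 of them, summed to 169 to 234 RPKM in cheek, 118 to 151 in retro-orbital and 109 to 170 in meninges tumors. The vestibular N tumor had 232 and the trigeminal N tumor 127.5. Pop4 was the highest by median (46.6 RPKM) and reached 121 in cheek 2. Rpp25, a subunit that binds both RNAs, was the lowest (median 1.21) and varied most (SD 1.14 on the log2 scale). Pop7 varied least (0.29). Of the 20 genes listed for the RNA polymerase III machinery, Snapc3 was highest (median 28.9 RPKM), Snapc1 lowest (6.26), Maf1, a repressor of this polymerase, varied least (SD 0.18) and Polr3g most (0.99). Polr3g ran from 2.86 RPKM in retro-orbital 3 to 27.8 in cheek 3, the tumor highest in Rmrp.

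Terc (chr3:96414437-96414833, minus strand) was low and uneven. RPKM was 25.9, 2.40, 14.5 and 18.8 in the retro-orbital, 23.6, 7.33 and 4.01 in the cheek and 16.8, 5.17 and 4.25 in the meninges tumors. In the vestibular N tumor it was 20.2 and in the trigeminal N tumor 23.8. High and low tumors occurred within each of the 3 larger locations, and the highest and the lowest value were both retro-orbital. These values rest on 21 to 328 fragments. The 95% Poisson interval was 1.59 to 3.47 RPKM for retro-orbital 2 and 23.0 to 29.2 for retro-orbital 1, so the 10.8-fold range was larger than the counting error. Such intervals cover counting error only.

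The genes most like Terc were Tmed9 (r = 0.875), Fbxl12 (0.869) and Imp3 (0.861). Of the 8 telomerase proteins, Tert, the reverse transcriptase that reads the Terc template, was the lowest (median 2.16 RPKM) and varied most (SD 0.60 on the log2 scale). It was highest in meninges 1 (5.34) and lowest in retro-orbital 3 (0.741). Nhp2, which binds RNAs of this fold, was the highest (47.2), and Parn, which trims the Terc 3′ end, varied least (0.17).

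Miat (chr5:112213228-112228948, minus strand) was the lowest and most variable of the 8. RPKM was 0.350, 3.24, 12.2 and 5.63 in the retro-orbital, 0.141, 0.980 and 0.683 in the cheek and 11.7, 13.9 and 3.32 in the meninges tumors. The vestibular N tumor had 4.94 and the trigeminal N tumor 9.31. All cheek tumors were below all meninges tumors, and retro-orbital 1 fell among the cheek tumors. The range of 98.6-fold rests on 35 fragments in cheek 1, with a 95% Poisson interval of 0.0982 to 0.196 RPKM, and on 3202 in meninges 2. The log2 SD of 1.35 was larger than that of 94.1% of the 15043 genes.

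Miat was most like Cdip1 (r = 0.934), Ttyh3 (0.915) and Ubn1 (0.914). The 6 markers of astrocytes and oligodendrocytes, all detected, summed to 122 to 401 RPKM in meninges and 10.5 to 24.6 in cheek tumors. In retro-orbital 1 to 4 they summed to 6.49, 3.95, 272.9 and 39.7, and retro-orbital 3, the highest of these, was also the highest of these for Miat. Among the meninges tumors the extremes went the other way. Meninges 3 had the highest sum (401) but the lowest Miat there (3.32), and meninges 2 the lowest sum (122) but the highest Miat (13.9). The sum in the vestibular N tumor was 72.2 and in the trigeminal N tumor 131.9. The 6 neuron markers summed to 14.6 to 167 RPKM, highest in retro-orbital 1, where Miat was at 0.350. The part of these cells in the Miat level was not tested.

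Gas5 (chr1:161034601-161038539, plus strand) holds snoRNA genes in its introns. RPKM was 149, 68.5, 57.7 and 75.8 in the retro-orbital, 123, 91.9 and 91.1 in the cheek and 101, 89.9 and 95.6 in the meninges tumors. The vestibular N tumor had 174 and the trigeminal N tumor 103. The deposited length was 2554 bases, against 346 to 2556 for annotated transcripts, so the level rests on a length that most spliced forms do not have. The vestibular N tumor and retro-orbital 1 were highest, and the other 3 retro-orbital tumors were the lowest of all 12.

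Snhg1 (chr19:8723487-8726326, plus strand) was highest and lowest in the same tumors as Gas5. RPKM was 92.7, 52.3, 51.6 and 74.5 in the retro-orbital, 119.8, 84.0 and 74.6 in the cheek and 101, 69.0 and 75.7 in the meninges tumors. In the vestibular N tumor it was 146 and in the trigeminal N tumor 102. Retro-orbital 2 and 3 were the lowest and the vestibular N tumor the highest, while the ranges of the 3 larger locations overlapped. The ratio of Gas5 to Snhg1 in RPKM stayed between 0.996 and 1.61. This closeness depends on the lengths used, 2554 bases for Gas5 and 476 for Snhg1. In fragments Gas5 was well above Snhg1 in every tumor, such as 7984 against 1463 in retro-orbital 4.

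Of the snoRNAs that the annotation names inside these hosts, 1 each has a row. Snord47 in Gas5 had 3.63 to 15.6 RPKM and Snord22 in Snhg1 19.2 to 38.2. A mature snoRNA is shorter than the fragments these libraries favour, so its row is a poor measure of its amount. Gas5 also overlaps Zbtb37 on the other strand (5.01 to 9.67 RPKM). Of the 11 other snoRNA hosts with rows, Snhg6 was the highest by median (46.0 RPKM) and Snhg9 the lowest (1.02), Snhg11 varied most (SD 1.33 on the log2 scale) and Snhg4 least (0.36). The 8 decay factors ranged by median from Upf3a (24.97 RPKM) to Smg6 (15.5), with the largest SD for Smg6 (0.43) and the smallest for Smg5 (0.23).

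Location was tested for all 14745 genes at 1 RPKM or more in at least 3 of the 10 tumors from the retro-orbital, cheek and meninges sites. limma was applied to log2(RPKM + 1) with Benjamini-Hochberg adjustment over all of them. Across the 3 locations, 0 of the 8 RNAs passed an adjusted p of 0.05, where 0.0407% of all genes did. Unadjusted, 1 of 8 was under 0.05 (Miat), and limma-voom on recovered fragments called 0 of 8, with 0 under 0.05 unadjusted. Among all genes, 6 passed, 2110 were under 0.05 unadjusted, and limma-voom called 0.

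In retro-orbital versus cheek tumors, 0 of 8 passed (background 0.0271%) and 0 were under 0.05 unadjusted. In retro-orbital versus meninges tumors the counts were again 0 and 0 (background 0.0203%). In cheek versus meninges tumors, 0 of 8 passed (background 0.0475%) and 1, Miat, was under 0.05 unadjusted. Of all 14745 genes, 1765, 1348 and 2501 were under 0.05 unadjusted in these 3 comparisons, in the same order. The unadjusted count of 1 is therefore no sign of a difference particular to the 8 RNAs. limma-voom called 0 of 8 in each of these. Shares this near to the background of few calls say little about the 8 RNAs either way.

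The difference nearest to the threshold was that of Miat, whose cheek minus meninges difference on the log2(RPKM + 1) scale was -2.58 (SE 0.78, 95% interval -4.33 to -0.84, limma adjusted p = 0.184). Its unadjusted limma p was 0.00815. All cheek values were under 1 RPKM, where adding 1 shrinks a difference. With a pseudocount of 0.1 the difference was -3.81, and limma-voom gave -4.24 (adjusted p = 0.404). Malat1 was 0.52 higher in retro-orbital than in cheek tumors (SE 0.24, interval -0.02 to 1.05, adjusted p = 0.432) and 0.49 higher than in meninges tumors (SE 0.24, adjusted p = 0.564). Although no tumors overlapped, neither difference passed. Neat1 was 0.63 higher in retro-orbital than in cheek tumors (SE 0.35, interval -0.15 to 1.40, adjusted p = 0.499). For Rmrp the retro-orbital minus cheek difference was -0.64 (SE 0.32, interval -1.36 to 0.08, adjusted p = 0.460).

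For the other 4 RNAs, the largest of the 3 differences was Snhg1 at -0.46 between retro-orbital and cheek tumors (interval -1.05 to 0.13) and Gas5 at -0.30 in the same comparison (interval -0.96 to 0.36). Rpph1 differed by 0.27 between cheek and meninges tumors (interval -0.59 to 1.13) and Terc by 0.64 between retro-orbital and meninges tumors (interval -1.14 to 2.41). Single tumors moved several of these values. Without 1 tumor, the Rpph1 difference ran from 0.01 (without meninges 3) to 0.54 (without cheek 2), and was 0.04 without cheek 1 and 0.52 without meninges 1. That of Terc ran from 0.29 (without retro-orbital 1) to 1.28 (without retro-orbital 2), with 0.31 without meninges 3, 0.42 without meninges 2 and 1.19 without meninges 1. That of Gas5 ran from -0.59 (without retro-orbital 1) to -0.13 (without retro-orbital 3), with -0.16 without cheek 1. Rmrp was at -0.38 without cheek 3, Neat1 at 0.39 without retro-orbital 2 and Snhg1 at -0.26 without cheek 1. Under quantile normalization, Malat1 was at 0.34 and Rpph1 at 0.13. This scaling sets values by rank, and these RNAs ranked 3 to 7 and 1 to 3, so it narrows their differences by construction. The limma adjusted p of the test across locations ran from 0.310 for Miat to 0.877 for Rpph1. The median of all genes was itself shifted, by -0.13 in retro-orbital versus meninges and by -0.16 in cheek versus meninges tumors, and differences are to be read relative to it.

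**Figure D3:**
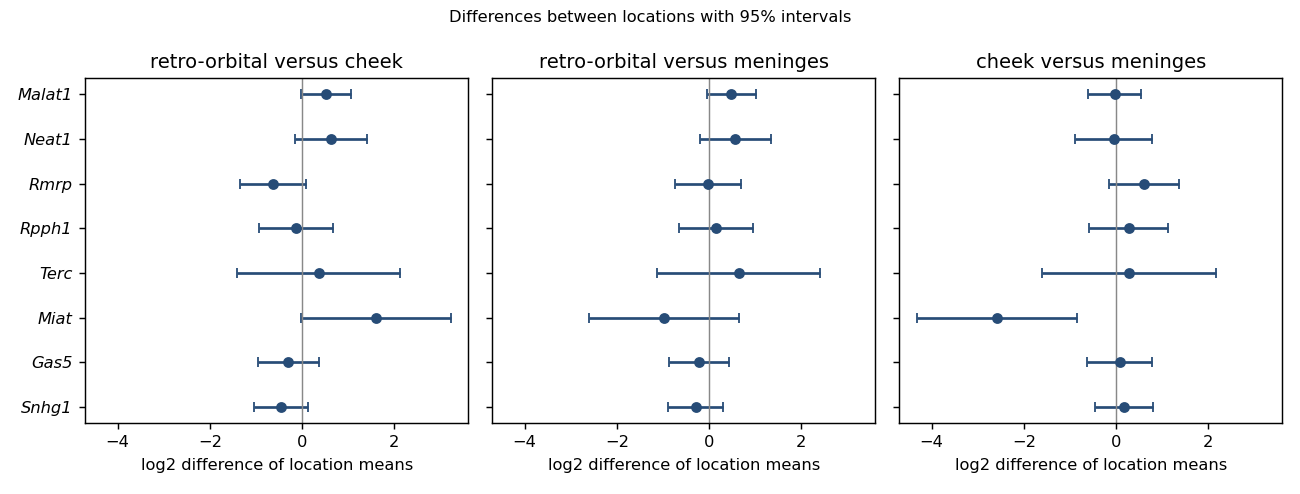
Differences between location means on the log2(RPKM + 1) scale for the 8 RNAs, 1 panel per comparison. Points are limma estimates, bars are 95% intervals without adjustment, and the line marks 0. The Miat interval in cheek versus meninges tumors (-4.33 to -0.84) is the one that does not reach 0.

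None of the lists around the 8 RNAs held a gene past the threshold in any of the 3 comparisons. That was 0 of 11 nuclear speckle, 0 of 11 paraspeckle, 0 of 11 RNase P and MRP, 0 of 8 telomerase, 0 of 8 decay and 0 of 20 polymerase III genes. It was also 0 of 11 snoRNA hosts, 0 of 8 genes of the 7SK particle, 0 of 9 other long noncoding RNAs, 0 of 7 other small structural RNAs and 0 of 12 cell cycle genes. Of all genes, only 0.0203% to 0.0475% passed in these comparisons, so counts of 0 in lists of this size say little about them. The median difference between retro-orbital and cheek tumors was -0.51 on the log2 scale for the RNase P and MRP proteins, -0.19 for the paraspeckle and -0.22 for the nuclear speckle proteins, beside 0.02 for all genes. This median was negative for each list named above, from -0.57 for the cell cycle genes to -0.07 for the polymerase III genes. The shift is therefore not particular to the RNase P and MRP proteins. Of the 7SK particle, whose RNA is Rn7sk, Hexim1 was highest (median 32.1 RPKM), Hexim2 lowest (5.05) and most variable (SD 0.55), and Ccnt1 least variable (0.26). Of the other long noncoding RNAs, Rian was highest (median 215 RPKM) and most variable (SD 0.97), Kcnq1ot1 lowest (5.03) and Tug1 least variable (0.30). Of the small structural RNAs, Rprl3 was highest (543), Rnu73b lowest (8.26), Rprl1 most variable (1.26) and Rnu11 least (0.37).

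Whether the RNAs varied together was asked over the 12 tumors with 28 pairs, on log2(RPKM + 1), with permutation tests of 100000 resamples, two-sided and adjusted by Benjamini-Hochberg over the 28. Both values of a pair come from the same library and are divided by the same fragment total. The 1 pair that passed was Gas5 with Snhg1, with r = 0.894 (permutation p = 0.0002, adjusted p = 0.0056) and Spearman's rho = 0.944 (p = 2e-05, adjusted p = 0.00056). Without the 2 tumors farthest from the Gas5 median, vestibular N 1 and retro-orbital 3, r was 0.768 (permutation p = 0.0108, adjusted p = 0.127 over the 28). Leaving out any 1 tumor, r stayed between 0.839 and 0.946 and passed in 12 of 12 cases.

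**Figure D4:**
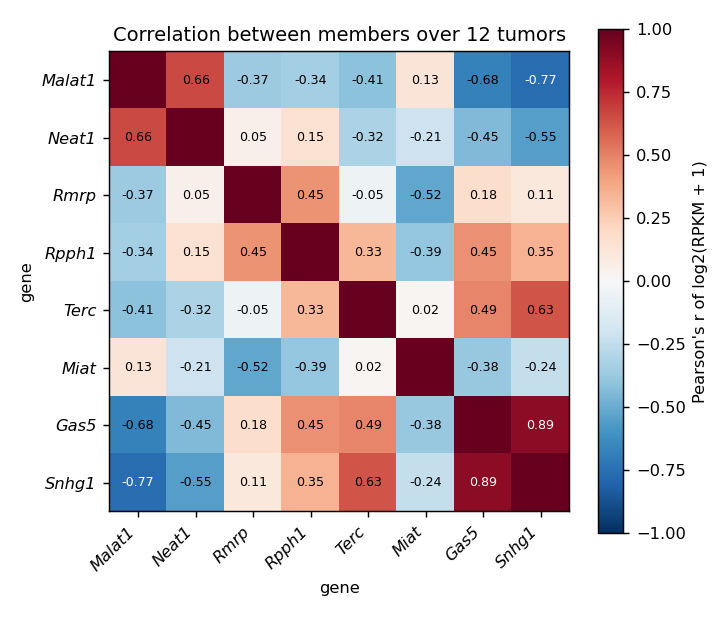
Pearson's r of log2(RPKM + 1) over 12 tumors for each pair of the 8 RNAs, printed in each square and coloured from -1 (blue) to 1 (red). The square of Gas5 and Snhg1 is the reddest (0.89) and that of Malat1 and Snhg1 the bluest (-0.77).

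Malat1 ran against both hosts. With Snhg1, r was -0.765 (permutation p = 0.00371, adjusted p = 0.0519) and rho -0.790 (p = 0.00365, adjusted p = 0.0511), and without retro-orbital 2 and 4, the farthest on the Malat1 axis, r was -0.809. This pair missed the threshold with all 12 tumors, passed without retro-orbital 3 (adjusted p = 0.0227) or without retro-orbital 4 (0.0246), and was at 0.283 without retro-orbital 2. Under quantile normalization r was -0.526 (adjusted p = 0.278). Malat1 ranked 3 to 7 in every tumor, so this scaling also narrows its variation. With Gas5, r was -0.679 (permutation p = 0.0159, adjusted p = 0.136) and rho -0.713 (adjusted p = 0.113). Malat1 and Neat1, neighbours on the chromosome, had r = 0.663 (permutation p = 0.0194, adjusted p = 0.136) and rho = 0.469 (adjusted p = 0.489). That value rested on retro-orbital 2 and 4, without which r was 0.328. Rmrp and Rpph1 had r = 0.450.

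For Rmrp and Rpph1 with all 12 tumors the permutation p was 0.142 (adjusted p = 0.370), and rho was 0.510 (p = 0.0937, adjusted p = 0.437). Leaving out the 2 tumors farthest from the Rmrp median gave r = 0.757 (permutation p = 0.0136, adjusted p = 0.127). These were cheek 2 and cheek 3, which are also the tumors where Rmrp exceeded Rpph1, so this value is no independent support for a relation. The remaining 23 pairs had r between -0.551 and 0.631.

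The levels were also set against 4 measures of each library, 32 relations in all, tested in the same way and adjusted over the 32. None of the 8 RNAs passed with the fragment total. Rpph1 passed with the summed RPKM of 119 snoRNA and scaRNA genes, with r = 0.837 (permutation p = 0.00031, adjusted p = 0.00992) and rho = 0.909 (p = 0.00021, adjusted p = 0.00672). Without retro-orbital 1 and cheek 1 it was 0.826 (permutation p = 0.00434, adjusted p = 0.139). Under quantile normalization, which gives genes of equal rank the same value in each tumor, r was 0.257 and the relation did not pass (adjusted p = 0.733). Rpph1 ranked 1 to 3 in every tumor, so this scaling leaves it little variation and cannot test the relation. For Rmrp the same relation had r = 0.568 (permutation p = 0.0552, adjusted p = 0.244) and rho = 0.580 (adjusted p = 0.240). The summed snoRNA and scaRNA level was 2215.5 to 3949 RPKM, highest in retro-orbital 1, and the tumors lowest in Rpph1, meninges 3 and trigeminal N 1, were also lowest in it. As the row of a mature snoRNA is a poor measure of its amount, this sum shares that limit.

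Gas5 rose with the mean level of 77 ribosomal protein mRNAs (r = 0.799, permutation p = 0.00164, adjusted p = 0.0262), and without vestibular N 1 and retro-orbital 4 r was 0.685. Its rho of 0.713 did not pass (p = 0.0115, adjusted p = 0.147), and without vestibular N 1, retro-orbital 3 or cheek 1 alone the adjusted p of r was 0.139, 0.0588 or 0.0501. With RPKM rescaled to the genes other than the 8 and the small structural RNAs, it was 0.0507. Snhg1 rose with 12 cell cycle genes (r = 0.763, permutation p = 0.00344, adjusted p = 0.0367), but rho was 0.518 (p = 0.0889, adjusted p = 0.285). Without retro-orbital 3 and vestibular N 1, the tumors at the ends of the cell cycle range, r was 0.496 (permutation p = 0.147). Leaving out 1 tumor, it passed in 4 of 12 cases, and its adjusted p was 0.0752 under quantile normalization and 0.0507 when rescaled. The 12 genes summed to 157 RPKM in retro-orbital 3 and 618 in the vestibular N tumor. Pcna, the replication clamp, was the highest by median (73.0 RPKM), Bub1 the lowest (8.74), Top2a varied most (SD 0.78) and Ccnb1 least (0.40).

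**Figure D5:**
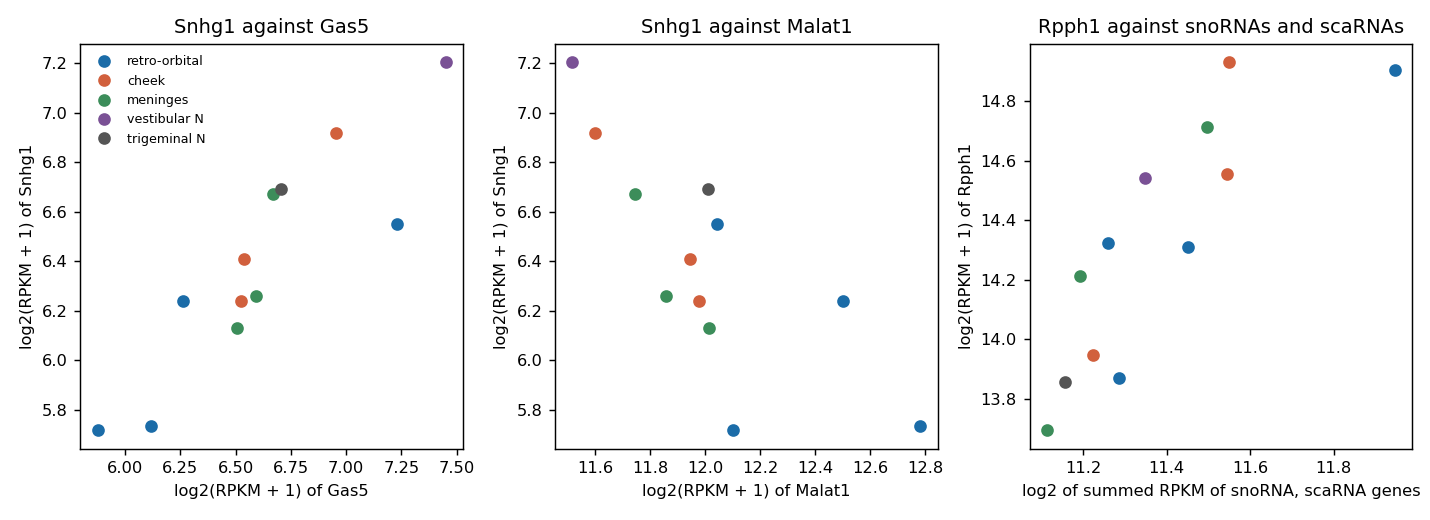
Snhg1 against Gas5 (left) and against Malat1 (middle), and Rpph1 against the summed snoRNA and scaRNA level (right), each axis on a log2 scale. Each point is 1 of 12 tumors, coloured by location. Points rise on the left (r = 0.894) and right (0.837) and fall in the middle (-0.765).

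The genes most like Gas5 were Cetn3 (r = 0.969), which encodes a centriole protein, Nono (0.965), a paraspeckle protein, and Hspe1 (0.953), a mitochondrial chaperonin. Those most like Snhg1 were Psma5 (0.956), a proteasome subunit, Gtse1 (0.943), a protein of dividing cells, and Hat1 (0.942), a histone acetyltransferase. Gas5 had r above 0.8 with 304 and Snhg1 with 397 of the 10644 genes. The numbers were 117 for Malat1, 40 for Miat, 30 for Terc, 22 for Rmrp, 7 for Neat1 and 6 for Rpph1. With r below -0.8 there were 83 genes for Malat1, 66 for Gas5, 62 for Snhg1 and 32 for Rmrp. There were 18 for Miat, 13 each for Neat1 and Terc, and 2 for Rpph1. These are counts over genes in the same 12 libraries, which are not independent of each other.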

How the data were processed

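Strand-specific total RNA libraries of 12 tumors were analysed from the RPKM tables deposited by the authors, with 1 column for each tumor. Per the labels and the study's methods, reads were sorted with bcl2fastq 2.17, aligned to mm10 with STAR and counted with HTSeq, and edgeR and limma are listed. The strand setting of the counting is not given in the sources used here. RPKM favours short RNAs and shares 1 sum per tumor. Since 1 fragment is worth a fixed RPKM, fragment totals and the gene length used were recovered: the length that made a gene's 12 values whole within 0.005 existed for every gene above 0, and these fragments came to 99.993% to 99.9996% of each total. Tests used limma 3.58.1 (R 4.3.3) on log2(RPKM + 1) with trended, robust variance for genes at 1 RPKM or more in at least 3 tumors, and permutation tests in Python 3.11.15 with NumPy 2.4.6. Alignments used Biopython 1.88. The recovery of fragments, the main limma fit and the permutation test of correlations were tested on simulated data, and the other steps were not. Alternatives changed the pseudocount, filter, scaling, variance model and tumors. limma-voom on fragments, fragments per remaining fragment and the sum without Rn45s and Mir6236 were chosen after seeing the data.

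The 8 RNAs, the gene lists and the tests were chosen with earlier results of these data known. Named genes were the 8, the 3 genes most correlated with each, and from each list the genes past the threshold, otherwise the highest and lowest by median and those with the largest and smallest SD (Snord47 and Snord22 are the hosted snoRNAs with rows). Sfpq, Rn45s, Mir6236, Smarcb1, Vim, Acta2, Fabp7, Zbtb37, Ccdc107 and Ccnb1ip1 were named beyond this rule after their values were seen. Of the file rows, 27 carry dates in place of symbols and were kept but not named. Positions are from RefSeq (GRCm38.p6) and GENCODE M21. Promoter entries were found for 4 of the 8 RNAs.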

Additional observations from a re-analysis of the deposited data

How the results depend on the processing

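No paired analysis was possible because replicate numbers follow only accession order, and across the 3 compared locations titles share a first part for 1 pair only, cheek 1 with meninges 1. In each alternative, and without each tumor in turn, 0 of the 8 RNAs passed in any of the 4 location tests, and the largest difference of each kept its sign, though single tumors moved several by over 1.5 times. Counts over all genes were unstable. Across locations they were 6 as reported, 10 with no filter, 19 without trend and robust fit, 0 with limma-voom, and 0 to 198 leaving out 1 tumor. For retro-orbital versus cheek they were 4, 2 with no filter, 1 with limma-voom and 0 to 147. For retro-orbital versus meninges they were 3, 7 with no filter, 6 without trend, 0 with limma-voom and 0 to 41. For cheek versus meninges they were 7, 2 with a pseudocount of 0.1, 18 with no filter, 13 with quantile normalization, 22 without trend, 0 with limma-voom and 0 to 527. The counts of 198, 147 and 527 all arose without cheek 1. That fit leaves cheek 2 and cheek 3 as the cheek group, whose titles share their first part and which may not be independent. The cause was not tested.

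Among pairs, 1 passed, 2 with RPKM rescaled without the 8 RNAs and small structural RNAs (Malat1 with Snhg1, adjusted p = 0.0393, against 0.278 under quantile normalization), 0 without the 2 farthest tumors, which also leaves fewer tumors, and 1 to 3 leaving out 1. Among library measures, 3 passed, 1 when rescaled, 0 without the 2 farthest and 1 to 4 leaving out 1. The median share of the 8 RNAs was 9.43% of RPKM and 3.90% of fragments, the unit being the difference. Depth limits Terc and Miat most, whose smallest fragment counts were 21 and 35.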
